A study of Mus musculus with 6 samples.

Results

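The genes Hmga1, Hmga2, Lin28a, Lin28b, Igf2bp1, Igf2bp2 and Igf2bp3 are grouped here as 7 members of a growth program of the embryo. They are described across the cells of developing mouse skin, where their levels did not share a profile. They were taken by symbol from the 28000 genes listed in each of 6 single-cell RNA libraries, and each symbol was found once. Skin from the back and flank of CD1 embryos was pooled over 3 to 4 embryos per library, sorted to leave out DAPI-stained cells, and read at the 3′ end of transcripts as unique molecular identifiers (UMIs). The first group, E14.5 LOF (n = 1), and the second, E13.5 LOF (n = 1), were of genotype PDGFRalphaCreER(Lo);beta-catfl/fl;mTmG, an inducible Cre driven by Pdgfra, floxed beta-catenin and a membrane reporter that turns from Tomato to GFP on recombination. Tamoxifen was given by gavage at E11.5, and the treatment note names that genotype only. The third group, E14.5 control (n = 2), and the fourth, E13.5 control (n = 2), were labelled WT. The 2 control libraries of a stage are pools of embryos, and nothing in the labels says that they came from separate litters. P-values between stages or genotypes therefore measure the spread between these pools. Comparisons of cells inside libraries, interactions included, take that spread out. Their p-values rest on differences within few libraries and on a variance shared over genes, so very small ones do not measure replication. With 1 LOF library per stage, values within a stage of LOF have no replicate.

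Hmga1 and Hmga2 are architectural chromatin proteins that bind AT-rich DNA through AT hooks, and mice without Hmga2 are small. Lin28a and Lin28b are RNA-binding proteins that block the maturation of let-7 microRNAs, and let-7 in turn represses the transcripts of Lin28, Hmga2 and Igf2bp1 through sites in their 3′ untranslated regions (3′ UTRs). Igf2bp1, Igf2bp2 and Igf2bp3 are RNA-binding proteins of fetal tissues that hold messenger RNAs such as Igf2 and Actb. Levels of several of these genes, though not of all, are known to be high in embryos and to fall as tissues mature.

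The seed of let-7 and its matches in the members' 3′ UTRs are shown because all 7 genes hold a match. No other shared sequence was searched for. MicroRNAs were not measured in these libraries. The mature sequences are from RefSeq (GRCm38.p6), written 5′ to 3′ with the seed, bases 2 to 8, in capitals. All 11 let-7 family genes looked up had the same seed.
mmu-let-7a-5p: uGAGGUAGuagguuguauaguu
mmu-let-7g-5p: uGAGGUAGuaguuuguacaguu
mmu-let-7i-5p: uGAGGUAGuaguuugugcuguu
mmu-miR-98-5p: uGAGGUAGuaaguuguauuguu

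The reverse complement of the seed, CTACCTC, was searched on the transcript strand of the longest annotated 3′ UTR of each gene (GENCODE, GRCm38). It was found in all 7 members and in 1877 of the 20732 genes with a 3′ UTR (9.05%). Hmga2, Lin28b and Igf2bp1 had 4 matches each, and 0.0579% of genes had as many. Their 3′ UTRs were long, at 3014, 4445 and 6337 bases, against a median of 963.5 bases over genes. The shares of genes take no account of length. Matches per kilobase were 1.33 for Hmga2, 0.900 for Lin28b and 0.631 for Igf2bp1, against 0.472 (Igf2bp3) to 0.845 (Hmga1) in the other members. Lin28a had 2 matches, and Hmga1, Igf2bp2 and Igf2bp3 had 1 each. A match is a run of letters and not a shown binding site. The 4 Hmga2 matches are on the minus strand of chromosome 10, in the last exon's 3′ UTR, and 1 match of each other member follows, with CTACCTC in capitals.
Hmga2, chr10:120364216-120364240: attcaatttCTACCTCagcatcagt
Hmga2, chr10:120362979-120363003: tcctcaataCTACCTCtgaatgcta
Hmga2, chr10:120362541-120362565: tgcaaggaaCTACCTCcacacttcc
Hmga2, chr10:120361683-120361707: aacacactaCTACCTCttaagtccc
Lin28b, chr10:45381014-45381038, minus strand: gcgggaagtCTACCTCatgcaagca
Lin28a, chr4:134005181-134005205, minus strand: cctgttgaaCTACCTCatttttgcc
Igf2bp1, chr11:95961770-95961794, minus strand: cgaagtaaaCTACCTCaaggtgtga
Igf2bp2, chr16:22059465-22059489, minus strand: aaataaaagCTACCTCaggtgtttt
Igf2bp3, chr6:49086779-49086803, minus strand: tttactcaaCTACCTCaggtattca
Hmga1, chr17:27563283-27563307, plus strand: gttcacaaaCTACCTCtggacggtt

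Of 41594 barcodes, 40653 were kept, 5850 to 8922 per library, with a median of 8192 to 11323 UMIs. Fibroblasts were cells with at least 15 UMIs of Col1a1, Col1a2 and Col3a1 (2871 to 4500 per library), and keratinocytes had at least 10 UMIs of Krt5, Krt14, Krt15 and Epcam (716 to 2106). Muscle, Schwann, macrophage, endothelial, melanoblast and pericyte cells were taken by at least 10 UMIs of their own markers. The check markers of the fibroblast gate, Pdgfra, Lum and Twist2, summed to 1227 to 3210 counts per 1000000 UMIs of the class (CPM) in fibroblasts and 12.6 to 69.6 CPM in keratinocytes. Transcripts of other cell types were present in some classes. The 6 red cell markers summed to 338 CPM in macrophages of E13.5 control replicate 2 and to 13778 to 18025 CPM in macrophages of the other libraries. Their part in the levels of the members was not tested. Several features set libraries apart. The reporter eGFP stood at 314 CPM in E14.5 LOF fibroblasts and 346 CPM in E13.5 LOF fibroblasts, and also at 91.7 and 118 CPM in the replicate 2 controls labelled WT, against 5.29 and 2.99 CPM in the replicate 1 controls of E14.5 and E13.5. The Tomato reporter, tdTomato, was found in keratinocytes of every library. It was at 62.4 CPM in E14.5 LOF and 987 CPM in E13.5 LOF. In controls labelled WT it was at 39.7 and 307 CPM at E14.5 and 1038 and 827 CPM at E13.5. Fibroblasts had 3.24 to 21.0 CPM of it. An eGFP UMI was found in 2654 of 4472 E14.5 LOF and 2117 of 4439 E13.5 LOF fibroblasts, against 1329 of 2871 and 1808 of 3324 in the replicate 2 controls of E14.5 and E13.5. The replicate 2 controls also had more of Gstp1 than the other libraries (125 and 146 CPM against 21.9 to 32.2 CPM), and Gm42418 was higher in E14.5 LOF and in control replicate 1 of E14.5 (1148 and 1759 CPM against 53.9 to 80.0 CPM in the rest). Ctnnb1, which encodes beta-catenin, was at 197 and 246 CPM in E14.5 and E13.5 LOF fibroblasts, against 176 to 195 CPM in control fibroblasts, so both libraries labelled LOF lay above all 4 controls. The labels do not say which exons are floxed, so 3′ counts do not check the deletion. Libraries shared 45 to 103 barcodes a pair, at most 1.46% of the smaller library.

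Hmga2 lay lower at E14.5 than at E13.5 in all 8 classes with control libraries of both stages, and its level differed between cell types. In control fibroblasts it stood at 145 and 113 CPM at E14.5, against 337 and 396 CPM at E13.5. In control keratinocytes it stood at 234 and 228 CPM at E14.5, against 547 and 633 CPM at E13.5. The E14.5 values lay below the E13.5 values in both classes, with no overlap. The log2 fold change of E14.5 over E13.5 was -1.49 ± 0.24 in fibroblasts (SE, 2.82-fold lower, edgeR quasi-likelihood test, adjusted p = 0.0741, n = 2 each) and -1.30 ± 0.20 in keratinocytes (2.46-fold lower, adjusted p = 0.0655). Neither passed an adjusted p under 0.05. No member did in either class, where 0.201% of 14431 genes and 0.241% of 12468 genes were called. The call rests on the setting: of the alternatives with a test, 8 of 14 passed in fibroblasts (adjusted p up to 0.232) and 8 of 14 in keratinocytes (adjusted p up to 0.255). All 15 alternatives kept the direction, with log2 values of -1.81 to -1.28 in fibroblasts and -1.47 to -1.15 in keratinocytes. The replicate 2 controls of the 2 stages, which share high Gstp1, gave -1.81 in fibroblasts and -1.47 in keratinocytes when set against each other, with no test. In bulk sums of a class, fewer cells with the transcript and less of it per cell cannot be told apart. The call was gained in fibroblasts without E14.5 control replicate 1 (adjusted p = 0.0350) or replicate 2 (0.0137), and in keratinocytes without E13.5 control replicate 1 (0.0397) or E14.5 control replicate 2 (0.0190).

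The share of cells with a Hmga2 UMI was lower at E14.5 as well. After each cell was thinned to 3000 UMIs, 33.4% (95% exact binomial interval 31.8 to 35.1) and 27.7% (26.0 to 29.4) of control fibroblasts had one at E14.5, against 55.8% (54.3 to 57.2) and 58.3% (56.6 to 60.02) at E13.5. In control keratinocytes the shares were 44.5% and 45.9% at E14.5, against 74.9% and 80.4% at E13.5. Without thinning they were 64.6% and 49.4% in E14.5 fibroblasts, against 82.9% and 80.5% in E13.5 fibroblasts. In macrophages, where the level was lowest, 1.42% to 8.93% of thinned cells had a UMI. Intervals cover counting error only.

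**Figure D1:**
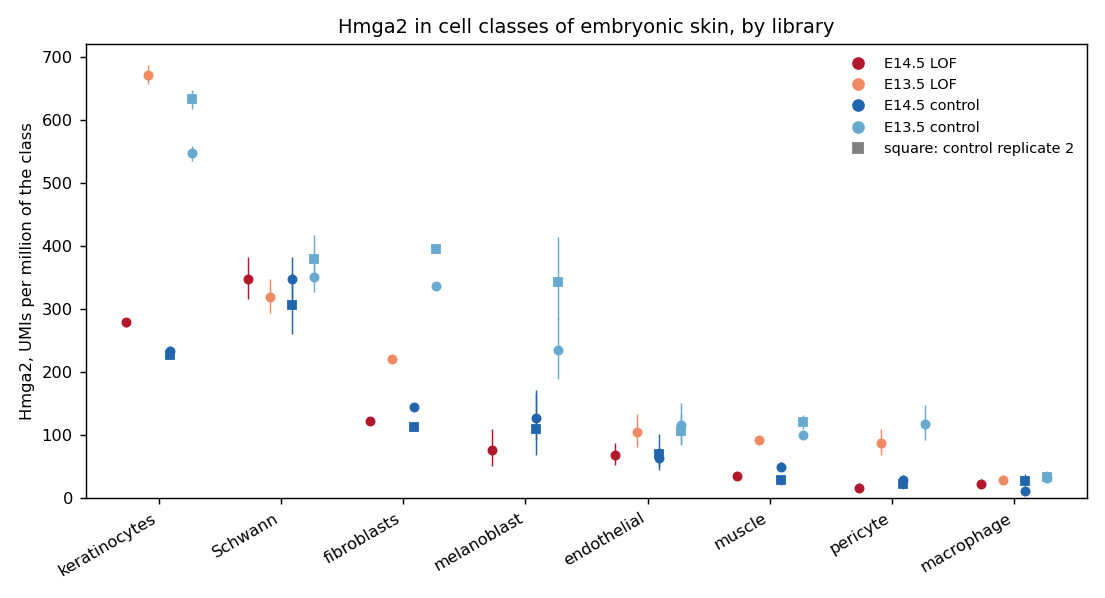
Hmga2 in 8 cell classes. The y axis gives CPM, each point is 1 library with at least 20 cells of the class, colours give the group, and bars are exact Poisson 95% intervals of counting error. Control keratinocytes and fibroblasts lie lower at E14.5 than at E13.5, while Schwann cells lie between 306 and 379 in all 6 libraries.

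The other classes gave the same order of stages with different sizes. Muscle cells had 49.3 and 28.1 CPM of Hmga2 at E14.5, against 99.8 and 121 CPM at E13.5 (log2 -1.51 ± 0.30 SE, edgeR adjusted p = 0.148). In muscle the test was passed without E14.5 control replicate 1 (adjusted p = 0.0160) or replicate 2 (0.0145). Endothelial cells had 63.9 and 69.3 CPM at E14.5, against 116 and 106 CPM at E13.5 (log2 -0.79 ± 0.32, adjusted p = 0.620). Melanoblasts had 127 and 109.6 CPM at E14.5, against 234 and 343 CPM at E13.5, with 22 to 39 cells per library and no test. Red cell markers summed to 39504 and 4390 CPM in these E14.5 melanoblasts, against 71295 and 280 CPM at E13.5, and their part was not tested. Pericytes had 28.0 and 23.1 CPM at E14.5, against 118 CPM in the single E13.5 control library with enough cells (28 cells). The keratinocyte check markers in pericytes summed to 562 and 617 CPM at E14.5, against 17.1 CPM in that library, and their part was not tested. Col1a1 in control pericytes was at 389 and 790 CPM at E14.5, against 671 CPM in that library. In control fibroblasts Col1a1 was at 4077 and 4288 CPM at E14.5, against 1495 and 2144 CPM at E13.5. The part of fibroblast transcripts in the pericyte values was not tested. In these classes the E14.5 control values of Hmga2 were all below the E13.5 control values. No gene of the list of 7 passed the test in muscle (0.0976% of genes called) or endothelial cells (0 called, with 8.02% of genes at an unadjusted p under 0.05).

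Schwann cells differed from fibroblasts in this respect. They had 348 and 306 CPM of Hmga2 at E14.5, against 352 and 379 CPM at E13.5, a log2 change of -0.24 ± 0.28 (edgeR adjusted p = 0.805, 0.0346% of genes called). The highest E14.5 value lay 1.01-fold below the lowest E13.5 value. The interaction test, added after the values were seen, gave a stage change of Hmga2 that was 1.22 ± 0.13 log2 higher in Schwann cells than in fibroblasts of the same libraries (edgeR adjusted p = 1.9e-19, 4.95% of 13765 genes called). It was the 1 member called in that comparison, and each of 7 alternatives called it, with log2 values between 1.13 and 1.35. Relative to fibroblasts of the same library, Schwann cells had 240% and 272% of the Hmga2 level in E14.5 controls, against 104% and 95.8% in E13.5 controls. Their Col1a1 level was 13.04% and 9.01% of that of fibroblasts at E14.5, against 15.0% and 6.997% at E13.5, and these overlapped. All 7 Schwann markers were detected in each library and summed to 2333 and 2193 CPM at E14.5, against 1898 and 1851 CPM at E13.5. Red cell markers summed to 42.5 and 8098 CPM in these Schwann cells at E14.5, against 63.5 and 326 CPM at E13.5. The interaction was called without either E14.5 control (log2 1.35 without replicate 1 and 1.13 without replicate 2).

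The stage change did not pass as different between fibroblasts and keratinocytes (log2 difference -0.19 ± 0.12, adjusted p = 0.346; no member among the 11.5% of genes called). Against fibroblasts, the interaction was -0.06 ± 0.13 in muscle (adjusted p = 0.964, 11.2% called), 0.59 ± 0.23 in endothelial cells (adjusted p = 0.299, 1.31% called) and 0.55 ± 0.27 in macrophages (adjusted p = 0.322, 3.61% called). The macrophage value was 1.37 without E14.5 control replicate 1 (adjusted p = 0.000814) and -0.47 without E14.5 control replicate 2, and rests on 17 and 36 UMIs at E14.5 against 52 and 63 UMIs at E13.5. Macrophages held 10.6 and 27.7 CPM at E14.5, against 31.6 and 34.1 CPM at E13.5. Over the 6 libraries their Hmga2 was 7.29% to 24.6% of the fibroblast level and their Col1a1 5.44% to 11.8%.

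**Figure D2:**
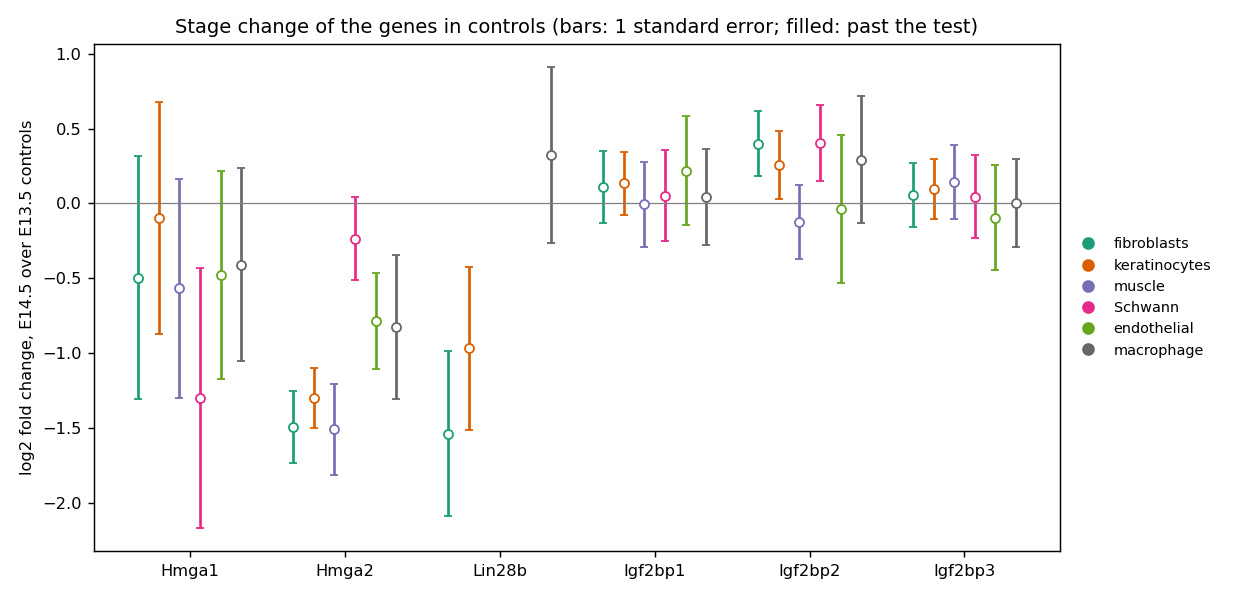
Stage change of 6 members in 6 classes of the control libraries. The y axis is the log2 fold change of E14.5 over E13.5 from edgeR, points are estimates, bars are 1 standard error, and filled points would mark an adjusted p under 0.05. No point is filled. Hmga2 lies at -1.49 in fibroblasts, -1.30 in keratinocytes, -1.51 in muscle and -0.24 in Schwann cells. The Igf2bp genes lie between -0.12 (Igf2bp2 in muscle) and 0.40 (Igf2bp2 in fibroblasts and Schwann cells).

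The order of the cell types differed between stages. At E14.5, over 3 libraries, the median Hmga2 level was highest in Schwann cells (348 CPM), followed by keratinocytes (234), fibroblasts (123), melanoblasts (109.6), mast cells (98.6), endothelial cells (68.1), muscle (35.4), pericytes (23.1) and macrophages (21.9). At E13.5, over 3 libraries or, for chondrocytes, melanoblasts and pericytes, 2, it was highest in keratinocytes (633 CPM), followed by chondrocytes (405), Schwann cells (352), fibroblasts (337), melanoblasts (289), endothelial cells (106), pericytes (102), muscle (99.8) and macrophages (31.6). Among neighbours in the E14.5 order, the libraries overlapped between fibroblasts, melanoblasts and mast cells and between pericytes and macrophages, and the other neighbours did not overlap. At E13.5 they overlapped from chondrocytes through Schwann cells and fibroblasts to melanoblasts, and from endothelial cells through pericytes to muscle, with no overlap between the other neighbours. Chondrocytes, found in numbers at E13.5 only, had 319 CPM in the LOF library and 492 CPM in control replicate 1. The mast cell value rests on 73 UMIs in 101 cells. Col1a1 in mast cells was at 602 CPM in E14.5 LOF and 1105 and 1354 CPM in E14.5 controls. In fibroblasts it was at 4943 CPM in E14.5 LOF and 4077 and 4288 CPM in E14.5 controls. The part of fibroblast transcripts in the mast cell value was not tested.

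Across the 6 libraries Hmga2 was lower in fibroblasts than in keratinocytes (log2 -1.05 ± 0.13 SE, edgeR adjusted p = 1.1e-04; 75.1% of 14880 genes called), with fibroblasts below keratinocytes in every library. It was lower still in muscle (log2 -1.45 ± 0.09 against fibroblasts, 68.2% of genes called), endothelial cells (-1.27 ± 0.11, 46.9% called) and macrophages (-2.89 ± 0.19, 68.8% called). Schwann cells against fibroblasts gave 0.70 ± 0.26 (adjusted p = 0.0780, 47.5% called), a value that joins stages at which the classes differ by different amounts.

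Within the epidermis Hmga2 was lower in stratified cells. Suprabasal keratinocytes, with at least 10 UMIs of Krt1 and Krt10, had 47.0 and 61.03 CPM in the E14.5 controls and 55.7 CPM in E14.5 LOF. Basal keratinocytes, with at most 1 such UMI, had 279 and 241 CPM in the same controls and 303 CPM in E14.5 LOF. The log2 fold change of suprabasal over basal cells was -2.36 ± 0.08 (SE, 5.14-fold lower, edgeR adjusted p = 1.6e-195, 3 libraries), among 53.3% of 11514 genes called. The cells compared numbered 115 to 220 suprabasal and 823 to 1487 basal per library. Basal keratinocytes alone gave a stage change of -1.15 (adjusted p = 0.103), with 279 and 241 CPM at E14.5, against 559 and 634 CPM at E13.5. At E13.5 there were at most 9 suprabasal cells a library, too few to compare.

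Hmga2 was higher in dividing cells. Cells with at least 3 UMIs of 8 G2/M genes were set against cells with none. Cycling keratinocytes had 240 and 239 CPM in E14.5 controls and 562 and 659 CPM in E13.5 controls, against 211 and 178 CPM and 465 and 560 CPM in their non-cycling counterparts. The change was 0.25 ± 0.04 in keratinocytes (edgeR adjusted p = 2.8e-07, 23.7% of genes called) and 0.36 ± 0.04 in fibroblasts (adjusted p = 1.3e-06, 50.5% called), with the same direction in all 6 libraries of each. The stage difference was also present among non-cycling fibroblasts, which had 132 and 109.6 CPM at E14.5, against 287 and 338 CPM at E13.5. The fibroblasts of each library with the highest share of collagen UMIs (718 to 1125 cells) and an equal number with the lowest did not differ in Hmga2 past the test (log2 -0.16 ± 0.15, edgeR adjusted p = 0.431). The E14.5 controls had 149 and 116 CPM in collagen-high cells, against 120.1 and 93.5 CPM in collagen-low cells, while the E13.5 controls had 264 and 275 CPM in collagen-high cells, against 389 and 469.8 CPM in collagen-low cells. The direction was opposite at the 2 stages, a difference that was not tested. Fibroblasts with 2000 to 8000 CPM of collagen UMIs, called collagen-matched, gave a stage change of -1.73 (edgeR adjusted p = 0.0407). They were 678 of 3283 and 1124 of 2871 E14.5 control fibroblasts, against 3388 of 4500 and 2782 of 3324 at E13.5. The window lay below the median collagen level of both E14.5 controls (12188 and 9375 CPM) and held that of both E13.5 controls (5687 and 4067 CPM). It therefore compares unlike parts of the fibroblasts of the 2 stages.

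**Figure D3:**
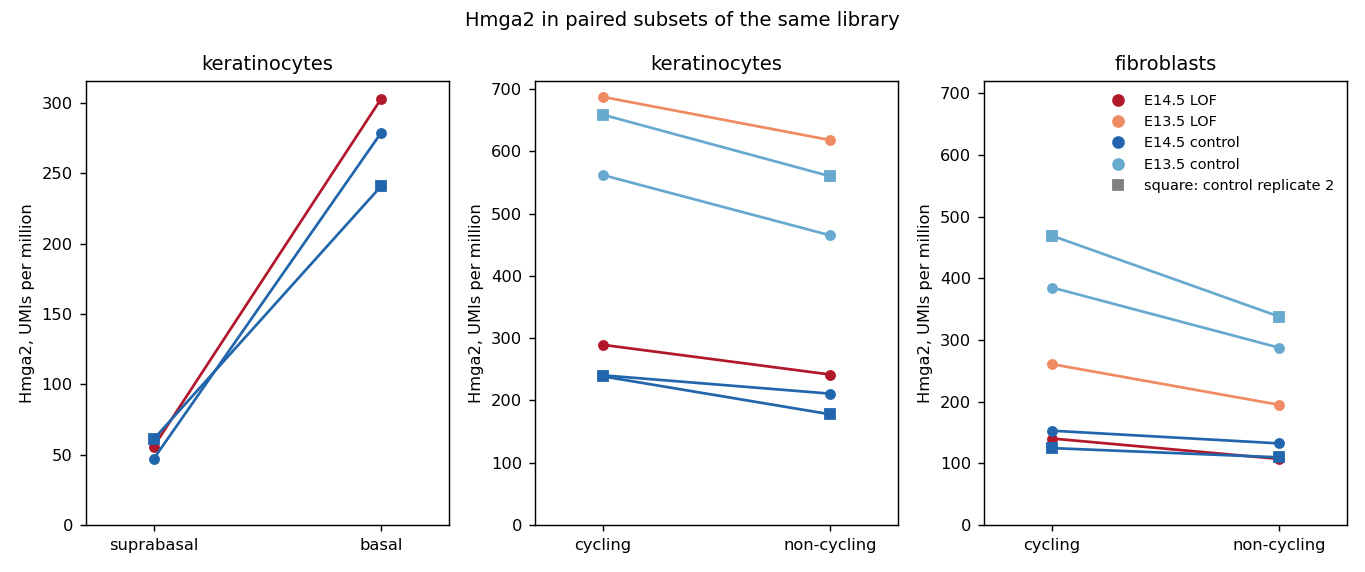
Hmga2 in subsets of the same library. The y axes give CPM, each line joins the subsets of 1 library, and colours give the group. Suprabasal cells lie at 47.0 to 61.03 and basal cells at 241 to 303 in the 3 E14.5 libraries, and every line slopes down from cycling to non-cycling cells.

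The counts of Hmga1 are uncertain, since the sequence of its 3′ end is not unique. In fibroblasts Hmga1 stood at 13.5 and 32.3 CPM in E14.5 controls, against 11.9 and 54.8 CPM in E13.5 controls, with replicate 2 higher at both stages. Hmga1 in keratinocytes stood at 58.0 and 142 CPM at E14.5, against 42.1 and 185 CPM at E13.5. Stages overlapped in both classes, and the fitted stage changes were within 1 SE of 0 (log2 -0.50 ± 0.81 and -0.10 ± 0.77). Gstp1 was high in the same replicate 2 controls, and the part in the Hmga1 values of what sets these libraries apart was not tested.

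Set inside each library, Hmga1 was lower in fibroblasts than in keratinocytes in all 6 libraries (log2 -2.28 ± 0.16, edgeR adjusted p = 5.9e-06, 4.86-fold). It was higher than in fibroblasts in macrophages (1.47 ± 0.14), muscle (1.12 ± 0.11), endothelial cells (1.003 ± 0.28) and Schwann cells (0.50 ± 0.13; adjusted p = 0.0053, and 0.0574 without E13.5 control replicate 2). It rose in cycling fibroblasts (0.71 ± 0.09) but cycling keratinocytes gave -0.04 ± 0.06 (adjusted p = 0.683). It fell in suprabasal cells (-0.65 ± 0.09) and in collagen-high fibroblasts (-1.40 ± 0.15, 40.7% of genes called), where it stood at 7.71 and 15.3 CPM in E14.5 controls and 6.22 and 21.0 CPM in E13.5 controls. Collagen-low fibroblasts of the same libraries had 16.4 and 43.1 CPM and 16.5 and 88.8 CPM.

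**Figure D4:**
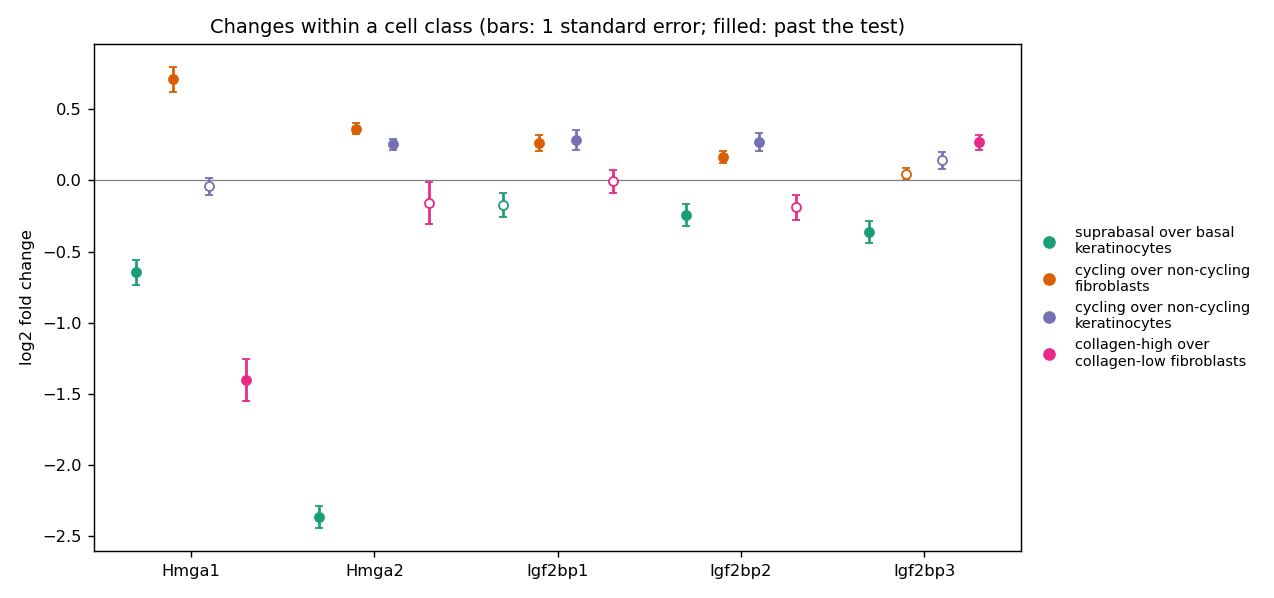
Changes of 5 members between subsets of the same libraries. The y axis is the log2 fold change from edgeR, points are estimates, bars are 1 standard error, and filled points have an adjusted p under 0.05. Hmga2 in suprabasal cells (-2.36) and Hmga1 in collagen-high fibroblasts (-1.40) lie farthest from 0, and the Igf2bp genes stay within 0.5 of 0.

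Lin28a was close to absent from the counts. It had 4 UMIs in 22889 fibroblasts, 3 UMIs in 7597 keratinocytes and 0 in the other classes, and all 7 UMIs came from E13.5 libraries. It passed the filter on low counts in no comparison.

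Lin28b was low and, of the 6 classes tested, was highest in macrophages. Macrophages held 12.4 and 5.39 CPM in E14.5 controls and 10.3 and 3.79 CPM in E13.5 controls, on 7 to 24 UMIs a library. Red cell markers summed to 13870 and 16159 CPM in these E14.5 macrophages, against 13778 and 338 CPM at E13.5. Fibroblasts held 0.14 and 0.14 CPM in E14.5 controls and 0.44 and 0.38 CPM in E13.5 controls, on 3 to 21 UMIs. The log2 fold change of macrophages over fibroblasts was 5.10 ± 0.41 (edgeR adjusted p = 4.2e-09, higher in 6 of 6 libraries). Endothelial cells also lay above fibroblasts (3.37 ± 0.66, adjusted p = 1.0e-04) on 12 UMIs in all. In both comparisons Lin28b passed the filter on low counts through the class where it was high and not through fibroblasts. The calls therefore describe that level and add no separate support to it. Keratinocytes held 1.04 and 0.41 CPM at E14.5, against 1.56 and 1.43 CPM at E13.5, and fibroblasts lay below keratinocytes in all 6 libraries (-2.16 ± 0.25, edgeR adjusted p = 6.3e-05). Here too Lin28b passed the filter on low counts through keratinocytes and not through fibroblasts, so this call adds no separate support. Mast cells, found in numbers at E14.5 only, held 12.0 CPM in LOF and 12.0 and 6.57 CPM in controls, on 8 UMIs. The stage changes of Lin28b were -1.54 ± 0.55 in fibroblasts (adjusted p = 0.248), -0.97 ± 0.54 in keratinocytes (adjusted p = 0.470) and 0.32 ± 0.59 in macrophages (adjusted p = 0.892), and none passed (0.124% of genes called in macrophages). In fibroblasts Lin28b passed the filter on low counts through the E13.5 controls and not through those of E14.5. In macrophages the share of thinned cells with a UMI was 0.671% to 4.64%, against 0.0229% to 0.181% in fibroblasts, so counts this low bear no finer comparison.

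**Figure D5:**
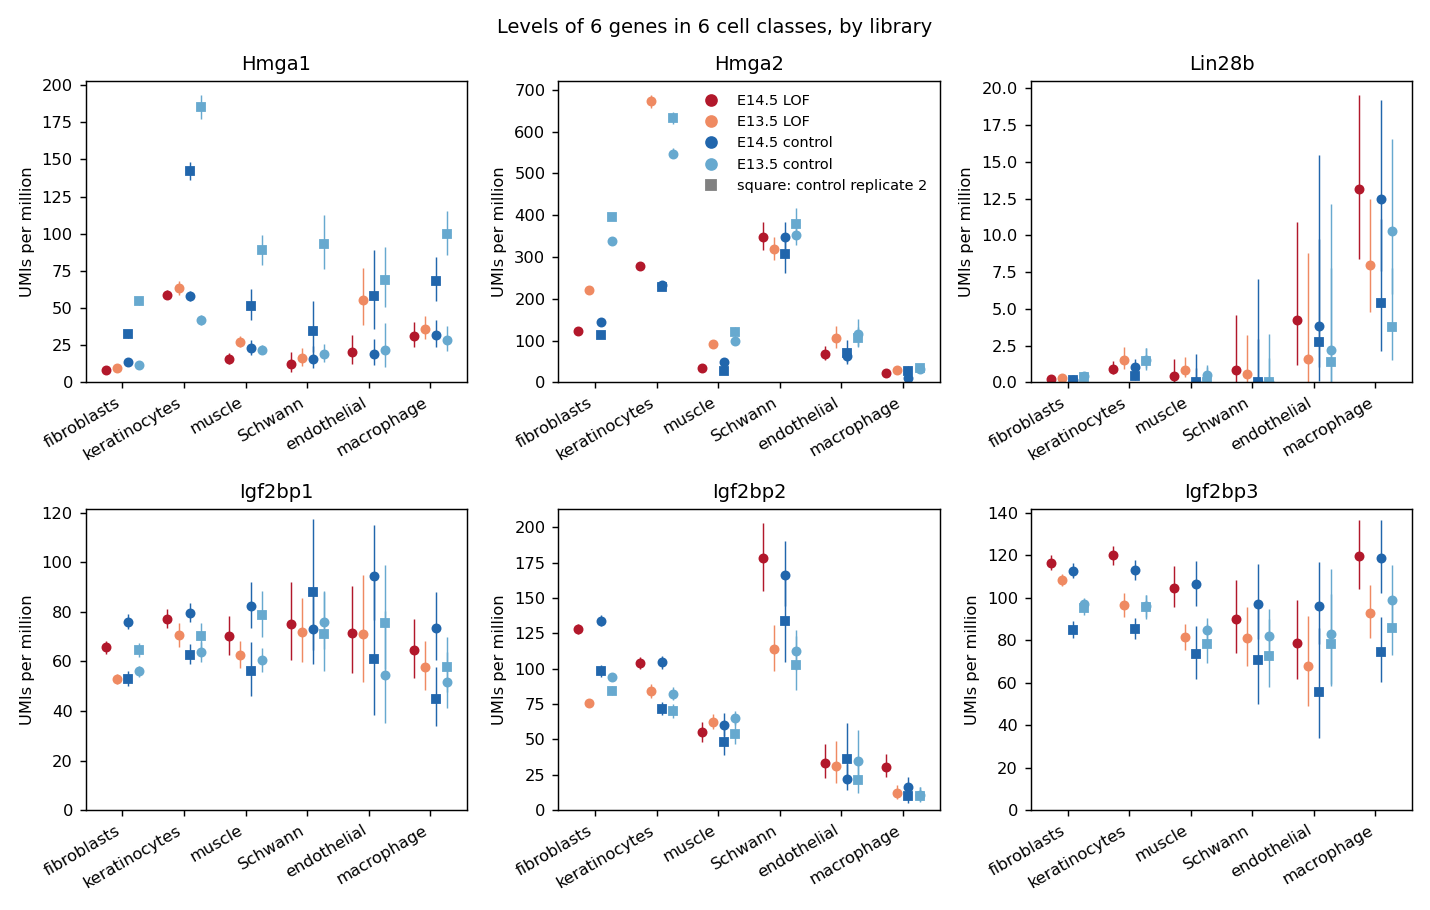
Levels of 6 members in 6 classes. The y axes give CPM, each point is 1 library, colours give the group, squares are the replicate 2 controls, and bars are exact Poisson 95% intervals of counting error. Lin28b is highest in macrophages, Igf2bp2 is lowest in macrophages and endothelial cells, and Igf2bp1 and Igf2bp3 have similar levels in all 6 classes.

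Of the 3 Igf2bp genes, Igf2bp2 varied most in median level across cell types. Class medians over 6 classes ran from 57.7 to 74.1 CPM for Igf2bp1 and from 78.6 to 103 CPM for Igf2bp3, a 1.28-fold and a 1.31-fold range. The medians of Igf2bp2 ran from 11.3 to 124 CPM, an 11.01-fold range. Those of Hmga2 covered a 14.5-fold range. Macrophages had 84.2% to 109% of the Igf2bp1 level of fibroblasts in the same library and 85.7% to 105% of the Igf2bp3 level.

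Igf2bp2 was lower than in fibroblasts in macrophages (log2 -2.68 ± 0.14), endothelial cells (-1.89 ± 0.16) and muscle (-0.58 ± 0.14, edgeR adjusted p = 0.0051). It was higher in Schwann cells (0.32 ± 0.07, adjusted p = 0.0011). In macrophages it stood at 16.2 and 10.0 CPM in E14.5 controls and 10.3 and 10.3 CPM in E13.5 controls. The Igf2bp2 level of macrophages was 10.1% to 23.9% of that of fibroblasts, beside 5.44% to 11.8% for Col1a1. Fibroblasts and keratinocytes did not differ past the test in Igf2bp2 (0.17 ± 0.08, adjusted p = 0.0764, and 0.0090 without E13.5 LOF). Igf2bp1 was 0.28 ± 0.05 lower in fibroblasts than in keratinocytes (adjusted p = 0.0012) and 0.37 ± 0.07 higher in muscle than in fibroblasts. Igf2bp3 was lower than in fibroblasts in endothelial cells (-0.45 ± 0.11) and Schwann cells (-0.39 ± 0.07), and between fibroblasts and keratinocytes gave -0.05 ± 0.05 (adjusted p = 0.394).

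Between stages no Igf2bp gene passed the test in any of 6 classes. Igf2bp2 in fibroblasts stood at 134 and 98.6 CPM at E14.5, against 93.9 and 84.5 CPM at E13.5 (log2 0.40 ± 0.22, adjusted p = 0.374), and the values did not overlap. Igf2bp1 stood at 76.1 and 53.0 CPM, against 56.0 and 64.5 CPM, and Igf2bp3 at 113 and 85.1 CPM, against 97.1 and 95.3 CPM, and both overlapped. Keratinocytes gave log2 changes of 0.14 ± 0.21, 0.25 ± 0.23 and 0.10 ± 0.20 for Igf2bp1, Igf2bp2 and Igf2bp3. In muscle Igf2bp2 stood at 60.3 and 48.5 CPM at E14.5, against 65.1 and 54.0 CPM at E13.5. Its stage change was 0.62 ± 0.14 log2 lower in muscle than in fibroblasts (interaction added after the values were seen, edgeR adjusted p = 0.00067). That call was lost with DESeq2 (adjusted p = 0.0972) and without E14.5 control replicate 1 (0.149).

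Within classes the Igf2bp genes shifted by small amounts. Cycling cells had more of Igf2bp1 (0.26 ± 0.05 in fibroblasts and 0.28 ± 0.07 in keratinocytes) and Igf2bp2 (0.16 ± 0.04 and 0.27 ± 0.06). The Igf2bp2 call in fibroblasts was lost when cells that pass 2 gates were kept (adjusted p = 0.0945). Suprabasal cells had less of Igf2bp3 (-0.36 ± 0.08) and Igf2bp2 (-0.24 ± 0.08). The Igf2bp2 call there was lost with DESeq2 (adjusted p = 0.0975), with a doubled gate minimum (0.244) and when E14.5 LOF (0.135) or control replicate 1 of E14.5 (0.0616) was left out, and Igf2bp1, not called at first (-0.17 ± 0.09, adjusted p = 0.0736), passed without E14.5 control replicate 2 (0.0183). Collagen-high fibroblasts had more of Igf2bp3 (0.27 ± 0.05, adjusted p = 0.0035).

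The libraries labelled LOF were compared with the controls over both stages. No member passed in fibroblasts (0.0134% of 14956 genes called) or keratinocytes (0 of 12743 by edgeR, 3 by DESeq2, with 1.68% at an unadjusted p under 0.05). Hmga2 in fibroblasts stood at 123 CPM in E14.5 LOF, against 145 and 113 CPM in E14.5 controls, and at 220.0 CPM in E13.5 LOF, against 337 and 396 CPM in E13.5 controls. The LOF library lay below both controls at E13.5 and between them at E14.5, and the joint change was -0.44 ± 0.21 (edgeR adjusted p = 0.7003). In keratinocytes, which had at most 4.46 CPM of eGFP, Hmga2 stood at 279 CPM in E14.5 LOF, against 234 and 228 CPM in controls, and at 672 CPM in E13.5 LOF, against 547 and 633 CPM in controls (0.21 ± 0.13, adjusted p = 0.985). Fibroblasts with an eGFP UMI and those without had 117 and 131 CPM of Hmga2 in E14.5 LOF and 217 and 223 CPM in E13.5 LOF. Hmga1 in fibroblasts stood at 8.41 and 9.87 CPM in E14.5 and E13.5 LOF (-1.69 ± 0.72, adjusted p = 0.644), below all 4 controls and nearer to replicate 1 than to replicate 2. Set against replicate 1 of E13.5, whose Gstp1 and Gm42418 were as low, E13.5 LOF fibroblasts gave -0.61 for Hmga2 and -0.25 for Hmga1, and E14.5 LOF against E14.5 control replicate 1, both high in Gm42418, gave -0.24 and -0.62, with no test.

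Other genes of the pathway were taken from 4 lists. Of 24 let-7 targets and heterochronic regulators, 23 were tested between stages in fibroblasts and in keratinocytes and 0 passed, with a median log2 change of 0.36 in fibroblasts and 0.23 in keratinocytes against 0.03 and 0.04 over all genes. Of the 4 let-7 precursor turnover genes, 4 transcripts bound by Igf2bp proteins and 9 other high mobility group genes, 0 passed in either class. In suprabasal against basal cells, 5 of 22 tested let-7 targets rose and 11 fell, beside 26.2% of all genes up and 27.1% down. Ccnd1, a G1 cyclin, fell by 1.52, Igf1r, a growth factor receptor, by 1.45 and Mycn, a growth regulator, by 3.53, while Nras, a GTPase, rose by 0.49. All 4 Igf2bp-bound transcripts rose there, with Cd44, a hyaluronan receptor, at 3.41 ± 0.12, Igf2, a fetal growth factor, at 1.04 ± 0.06 and H19, its imprinted neighbour, at 0.96 ± 0.04.

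Between cycling and non-cycling cells most of the other high mobility group genes rose. In fibroblasts, where 24.2% of all genes rose and 26.3% fell, 6 of 9 rose and 0 fell, with Hmgb2 at 2.95 ± 0.07 and Hmgb3 at 1.02 ± 0.04, and in keratinocytes, where 14.2% of all genes rose and 9.45% fell, 7 of 9 rose and 0 fell, with Hmgb2 at 2.19 ± 0.04. The median of that list was 0.57 and 0.31 against -0.03 and 0.00 over all genes. Of 23 let-7 targets in fibroblasts 9 rose and 6 fell, and the share that fell was near that of all genes. Igf2, H19 and Cd44 fell in cycling fibroblasts, by 0.44, 0.53 and 0.61. Fibroblasts against keratinocytes, where 75.1% of all genes were called, gave 7 let-7 targets higher and 11 lower of 24, 5 high mobility group genes lower and 2 higher of 9, and all 4 Igf2bp-bound transcripts higher, with Igf2 at 3.02 ± 0.08. The counts of let-7 targets and high mobility group genes called were near that share. Of the turnover genes, Zcchc11 (0.58 ± 0.07) and Zcchc6 (0.34 ± 0.06), which add uridines to let-7 precursors, were higher in fibroblasts, and Dis3l2 (-0.34 ± 0.08), which degrades them, was lower.

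The genes whose levels ran most like those of Hmga2 were found over 36 profiles, the 6 libraries times 6 classes, among 6000 genes with a mean of at least 20 CPM. They were Ldhb (Pearson r = 0.92 of log2(CPM + 1)), Hddc2 (0.92), Tecr (0.91), Dstn (0.90) and Tsen34 (0.89). Of the members, Igf2bp2 ran most like Hmga2 (0.77), followed by Lin28a (0.38, on very few UMIs) and Igf2bp1 (0.28). Hmga1 (0.06), Igf2bp3 (-0.03) and Lin28b (-0.61) did not run with it, so the members did not share a profile. Among 12173 genes with a mean of at least 2 CPM, those most like Lin28b were Dock8 (0.95), Actr3 (0.93), Syk (0.92), Inpp5d (0.92) and Rnpep (0.91), each at its highest mean in macrophages. Those most like Igf2bp3 were Gm13225 (0.81), Spice1 (0.81), Vegfb (0.80), Exoc3 (0.79) and Snx19 (0.79). Profiles of 1 library share its depth and cell suspension, so these values are descriptions.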

How the data were processed

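The deposited values are raw UMI counts per gene and cell barcode. Per the submitters' processing notes, which give no versions or roles, the tools were Cell Ranger and Seurat and the build mm10 (GRCm38). A barcode needed 1000 UMIs, 500 genes and a mitochondrial share of 10% or less. Cells of the fibroblast and keratinocyte gates that passed a second gate were left out of those 2 classes. Cells of the other classes were left out if they passed the keratinocyte gate or a second gate among these other classes. Those that also passed the fibroblast gate were kept, since collagen UMIs were allowed there. No doublet caller was run. Counts were summed per library and class of at least 20 cells and tested with edgeR 4.0.16 (quasi-likelihood, robust, TMM, filterByExpr, R 4.3.3) over all genes, with Benjamini-Hochberg adjustment at 0.05. Comparisons inside libraries had the library as a block, and genotype had stage as a covariate. DESeq2 1.42.0 was an alternative. The scripts were tested on simulated data. The members and lists were chosen with earlier results of these data known. Genes of a list are named where they passed, up to 5 with the smallest p. Interactions of muscle, Schwann, macrophage and endothelial cells, those classes against fibroblasts, collagen-high against collagen-low fibroblasts, and the collagen-matched, non-cycling and basal alternatives were added after the data were seen. A withheld item is not reported here. CPM is the count of a gene per 1000000 UMIs of the class.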

Additional observations from a re-analysis of the deposited data

Results flagged for a closer look

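The stage change of 2 members differed between classes by a test of the difference itself. Both tests were added after the values were seen, so they are not independent of them. The planned test of fibroblasts against keratinocytes called no member. For Hmga2 the E14.5 over E13.5 change was 1.22 log2 higher in Schwann cells than in fibroblasts (SE 0.13, edgeR adjusted p = 1.9e-19), with Schwann cells at 348 and 306 CPM at E14.5, against 352 and 379 CPM at E13.5. For Igf2bp2 the difference of muscle from fibroblasts was -0.62 log2 (SE 0.14, edgeR adjusted p = 0.00067), and it was lost with DESeq2 (adjusted p = 0.0972) and without E14.5 control replicate 1 (adjusted p = 0.149). Single libraries were not tested for lying apart within a group of 2.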

How the results depend on the processing

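A member value not called and within 2 SE of 0 was given no direction, so its change of sign was not counted as a reversal. Of 505 repeats of values with a direction, 2 reversed: Igf2bp1 in suprabasal cells was 0.042 with a doubled gate minimum, and Hmga2 in the macrophage interaction ran from -0.47 without E14.5 control replicate 2 to 1.37 without E14.5 control replicate 1. The cause of these and the following was not tested. Counts of genes called over E14.5 against E13.5 depended on the setting. They were 29 in fibroblasts, 30 in keratinocytes, 10 in muscle, 3 in Schwann cells, 11 in macrophages and 0 in endothelial cells. In that order, no filter on low counts gave 711, 719, 556, 201, 166 and 64. RLE size factors gave 95 in fibroblasts, 50 in keratinocytes and 28 in muscle, and DESeq2 949 in fibroblasts and 437 in keratinocytes. All 6 libraries gave 1583 and 537, the library sets taken from the data as a term 1902 and 1184. In fibroblasts, keeping cells of 2 gates gave 0, a doubled gate minimum 0 and collagen-matched cells 233. Non-cycling keratinocytes gave 50. Leaving out 1 library gave 360 to 3432 in fibroblasts (3432 without E14.5 control replicate 2), 65 to 2111 in keratinocytes, 48 to 1719 in muscle, 24 to 1041 in Schwann cells, 31 to 1438 in macrophages and 7 to 187 in endothelial cells.

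Replicate numbers came from accession order and pair nothing. The deviations of same-numbered controls correlated at 0.34 in fibroblasts and 0.35 in keratinocytes over 2 pairs. With the replicate block, calls numbered 994 in fibroblasts, 1041 in keratinocytes, 91 in muscle, 207 in Schwann cells, 70 in macrophages and 13 in endothelial cells, and Hmga2 gave -1.49 in fibroblasts and -1.29 in keratinocytes (edgeR adjusted p = 0.0076 and 0.00038).

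For genotype, fibroblasts had 2 calls, against 6 with no filter, 268 with DESeq2, 0 with cells of 2 gates kept, a doubled gate minimum or the library sets as a term, 1 in non-cycling or collagen-matched cells, and 0 to 1 with 1 library left out. Keratinocytes had 0, against 3 with DESeq2. DESeq2 also called fewer genes in the fibroblast-keratinocyte interaction (923, against 1671), in those of muscle (494, against 1562), Schwann cells (161, against 681), macrophages (134, against 501) and endothelial cells (58, against 180), in cycling keratinocytes (1694, against 2794) and in suprabasal cells (3967, against 6140, and 3896 with a doubled gate minimum). With 1 library left out, these interactions gave 887 to 1468, 727 to 1563, 266 to 493, 209 to 666 and 102 to 136 calls. Thinning moved 69 of 84 shares of cells with a UMI beyond their counting interval. Lin28a and Lin28b had few UMIs, and the part of depth in this was not tested.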
